A study of Gallus gallus with 16 samples.

Results

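The comparison set 4 chicks that had recovered for 24 h from form deprivation myopia (FDMR 24 h, chicks FD26, FD29, FD30 and FD32) against 4 chicks that had never worn an occluder (No Lens, chicks FD3, FD4, FD6 and FD7). The series holds 16 RNA-seq libraries, and the other 8 come from chicks collected at occluder removal (FDMR 0 h) or after 6 h of recovery (FDMR 6 h). All birds were male Leghorn/New Hampshire chicks, the right eye was sampled, and each library was made from the retina, retinal pigment epithelium (RPE) and choroid of 1 bird. FDMR 24 h chicks wore a translucent occluder over the right eye for 7 days from post-hatch day 5. The eye was then uncovered for 24 h, which in the study's cycle of 12 h light and 12 h dark included a full night. Both groups were collected at about 10 am, so the hour of day was matched, but FDMR 24 h chicks were 1 day older than No Lens chicks. Age and recovery cannot be told apart here. The sample labels give post-hatch days 20 and 21, whereas the described schedule leads to days 12 and 13. The sequenced birds were picked from larger groups for comparable axial lengths, 4 of 8 per group, which limits how far they stand for all treated birds. The eyes of FDMR 24 h chicks had been both deprived and released, so the comparison asks what differed from undeprived eyes 1 day after release. It does not separate what deprivation left from what release changed.

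In chick, a translucent occluder makes the growing eye elongate and become myopic, and normal vision afterwards slows growth while the choroid, a vascular and pigmented sheet, thickens. Signals for growth pass from the retina through the RPE to the choroid and sclera. Bone morphogenetic proteins of the RPE, retinoic acid made in the choroid and glucagon of amacrine cells are among the molecules studied in this signalling. The sample mixes neurons, glia, pigment cells, vessels and connective tissue, and in such bulk tissue fewer cells of a type and less RNA per cell cannot be told apart.

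The 4 and 4 libraries had 1553717 to 4363296 counts on genes, with chick FD29 of FDMR 24 h the shallowest. On the first principal component of the 8 libraries, which held 50.3% of the variance, No Lens chick FD3 lay at -55.94 and FD29 at 37.55, and the other 6 lay between -13.26 and 23.65. The main results are therefore also given without these 2 libraries. Levels are CPM, gene counts scaled to a common library size, with TMM scaling, and values by chick are listed in the order FD3, FD4, FD6, FD7 for No Lens and FD26, FD29, FD30, FD32 for FDMR 24 h. Every adjusted p given here is from the quasi-likelihood test of edgeR with Benjamini-Hochberg adjustment over 11334 genes, and a gene is called where it is below 0.05. Genes entered the test with at least 10 counts in at least 4 of the 16 libraries. The labels name no batch.

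After 24 h of recovery 151 genes were called against No Lens, 51 higher and 100 lower. These are 1.33% of the genes tested, 0.450% for the higher and 0.882% for the lower direction. An unadjusted p under 0.05 in edgeR was reached by 1563 of the 11334 genes, the background for such counts in single lists. The lower genes reached larger fold changes. Of these 100, 52 fell at least 2-fold, 21 at least 4-fold and 12 at least 8-fold. Of the 51 higher genes 22, 3 and 1 rose by as much. The filter did not treat the directions alike. A gene near 0 only at 24 h could pass through the other groups. A gene high only at 24 h needed 10 counts in all 4 of its libraries, the shallow FD29 included. How much of the difference in fold changes comes from this was not tested. The median log2 fold change was -1.10 for the lower genes, 0.94 for the higher genes and 0.000 for all genes tested. For the same lower and higher genes the medians were -0.29 and 0.07 at 0 h minus No Lens. They were -0.82 and 0.86 at 24 h minus 0 h. The genes were chosen on the 24 h comparison with No Lens, which shares libraries with both, so these medians are a description. The 4 and 4 chicks did not overlap in CPM for 148 of the 151 genes, beside 6.29% of all genes tested. The genes were called on these same libraries, so a lack of overlap was favoured by the choice and is a description. Of the lower genes 17 averaged under 10 counts at 24 h, where a fitted fold change depends on the prior count. With only the 8 compared libraries in the fit, 23 higher and 70 lower genes were called, and without both FD3 and FD29 the counts were 23 and 66. Leaving out FD32 of FDMR 24 h alone gave 31 higher and 61 lower genes, and leaving out FD3 alone gave 33 higher genes.

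**Figure D1:**
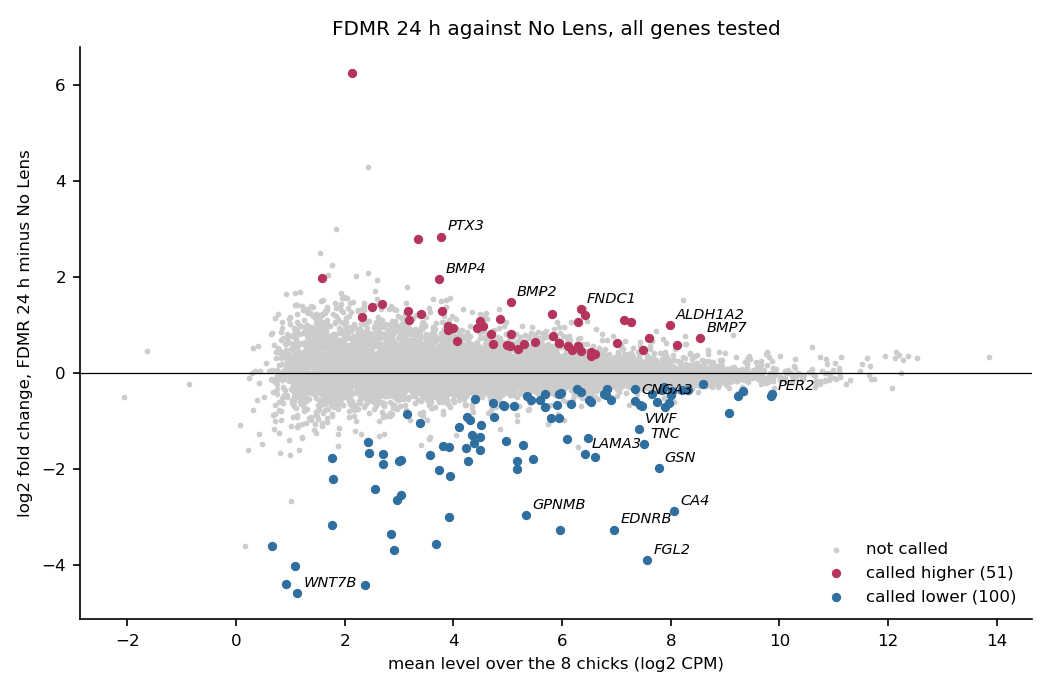
Each point is 1 of the 11334 genes, with its mean level over the 8 chicks on the x axis (log2 CPM) and its log2 fold change, FDMR 24 h minus No Lens, on the y axis. The 100 genes called lower (blue) reach below -4, the 51 called higher (red) mostly lie under 2, and the point near 6 is a gene without a symbol.

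The 12 largest falls ranged from 7.3-fold to 23.9-fold, and several of the genes were abundant in undeprived eyes. These falls, and the largest rises below, were taken only from called genes that had a symbol and whose groups did not overlap in CPM. Called genes without a symbol are thus left out, although ENSGALG00000012021 (log2 fold change -3.68), ENSGALG00000003025 (-3.60) and ENSGALG00000010901 (-3.27) fell more than some of the 12. The lack of overlap among them was thus set by the rule and is a description. FGL2, fibrinogen-like protein 2, was at 454, 386, 337 and 254 CPM in the No Lens chicks and at 13.1, 17.2, 51.4 and 9.59 CPM at 24 h. It was lower in every recovered eye than in any No Lens eye, with a log2 fold change of -3.89 (SE 0.49, adjusted p = 0.000325), which is 14.9-fold, and without FD30, the highest of the recovered birds, it was -4.83. EDNRB, the endothelin B receptor, stood at 286, 246, 214 and 159 CPM and at 10.6, 14.6, 49.6 and 14.1 CPM, and fell by 3.26 on the log2 scale (SE 0.45, adjusted p = 0.000696). CA4, a membrane-bound carbonic anhydrase, was the most abundant of the 12 largest falls, at 508, 487, 485 and 388 CPM without occlusion. It was at 58.3, 67.6, 71.8 and 58.9 CPM after recovery, a fall of 2.87 (SE 0.35, adjusted p = 0.000292). Its 4 recovered values lay closer together than those of FGL2 or EDNRB.

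GPNMB, a transmembrane glycoprotein of melanosomes and lysosomes, was under 1 CPM in 2 recovered eyes and clearly present in the others. Its levels were 81.3, 78.3, 73.8 and 58 CPM in No Lens chicks and 0.494, 0.663, 21.8 and 9.33 CPM at 24 h (log2 fold change -2.96, SE 0.54, adjusted p = 0.00649). ATP6V1C2, a subunit of the proton-pumping vacuolar ATPase, fell from 37.4, 24.3, 28.8 and 17.5 CPM to 1.23, 2.65, 5.28 and 3.73 CPM (7.98-fold lower, adjusted p = 0.0012). CPA6, a carboxypeptidase, fell from 33.5, 33.3, 17.5 and 10.8 CPM to 1.97, 0.663, 4.13 and 0.267 CPM (log2 fold change -3.55, adjusted p = 0.00159). By the same rule none of these 3 genes overlapped between the groups.

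The receptors for prostaglandin F (PTGFR) and for protease activation (F2RL1, protease-activated receptor 2) also fell, by 3.34 and 3.17 on the log2 scale (adjusted p = 0.00335 and 0.00186). PTGFR was at 8.27 to 20.7 CPM without occlusion and at 0.533 to 1.84 CPM at 24 h. F2RL1 was at 3.35 to 10.6 CPM and at 0.459 to 0.8 CPM. CFC1, a co-receptor of Nodal-type ligands, went from 6.68 to 13.2 CPM down to 0 to 0.918 CPM (log2 fold change -4.41, adjusted p = 0.00177). These 3 genes rest on few reads in the recovered eyes.

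At 24 h 3 of the 12 largest falls had almost no reads. WNT7B, a secreted Wnt ligand, had 64 reads over the 4 No Lens libraries and 2 over the 4 recovered ones, a depth-corrected ratio of 28.7 (95% exact counting interval 7.63 to 242, adjusted p = 0.00385). GPD1, cytosolic glycerol-3-phosphate dehydrogenase, had 58 against 2 reads, a ratio of 26 (6.89 to 220, adjusted p = 0.00164). SLC9A3, a sodium-proton exchanger, had 62 against 3 reads, a ratio of 18.5 (6.06 to 92.4, adjusted p = 0.000686). The intervals cover counting error only, and 3 reads equal 0.688 to 1.93 CPM depending on the library. All 12 largest falls stayed called when any 1 of the 8 chicks was left out and without both FD3 and FD29. GPNMB was not called by limma-voom. WNT7B, GPD1 and SLC9A3 were not called in a fit with all libraries thinned to the depth of the shallowest. The sizes of the falls moved when chicks were left out. Without FD30 the log2 fold change was -4.16 for GPNMB and -4.14 for EDNRB. For WNT7B and GPD1 the fitted values without FD30 were -7.02 and -6.84. All 24 h reads of WNT7B and GPD1 were in FD30, so these 2 values rest on the prior count and are not measured sizes.

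**Figure D2:**
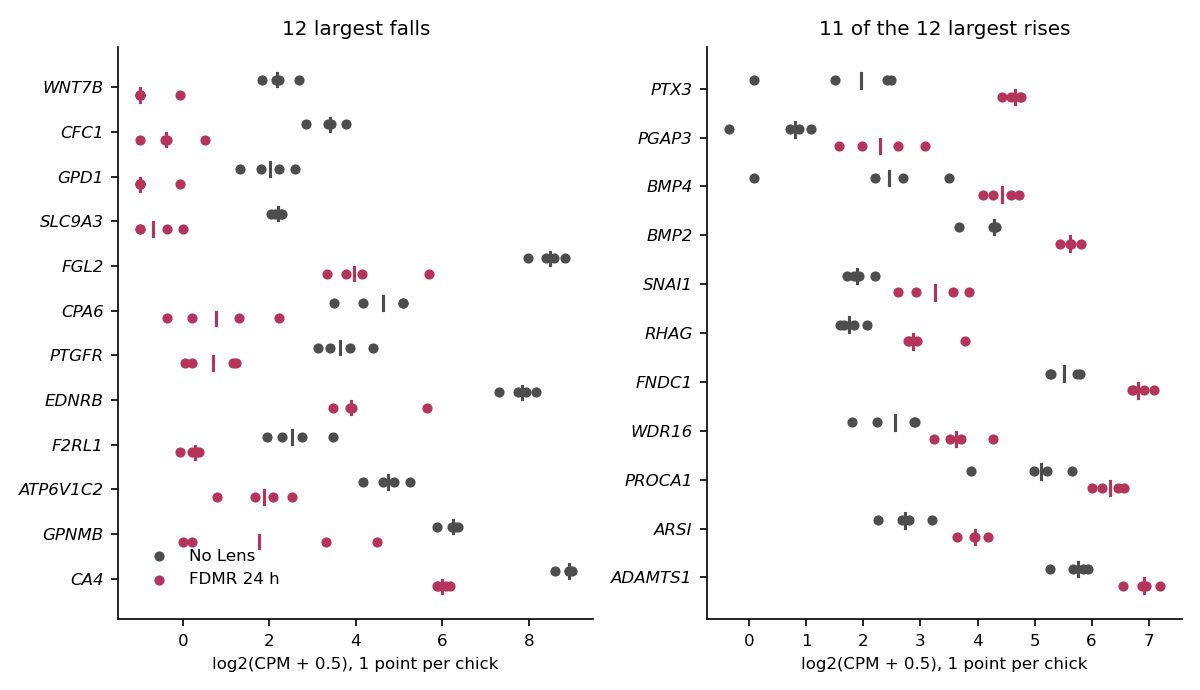
Each point is 1 chick, on a scale of log2(CPM + 0.5), for the 12 largest falls (left) and 11 of the 12 largest rises (right) by the naming rule, and bars mark group medians. The rule took only genes without overlap between No Lens (grey) and FDMR 24 h (red). FD30 gives the rightmost red point for most of the falls.

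Within 3 of the groups single chicks stood at one end for most of these 12 genes. Chick FD30 had the highest level of the 4 recovered eyes for 10 of the 12, beside 18.4% of all genes tested. Chick FD23 was the lowest of FDMR 6 h for 10 of 12, beside 32.3% of all genes, and chick FD10 the lowest of FDMR 0 h for 11 of 12, beside 25.8%. No Lens chicks were mixed, with FD3 the highest for 6 and the lowest for 3, and FD7 the lowest for 7 and the highest for 2. For FGL2 the 6 h chicks were at 292, 300, 293 and 72.4 CPM and for CA4 at 534, 305, 390 and 125 CPM, so the same bird was low in both. What this shared variation between birds stands for was not tested. All 12 were also called lower at 24 h than at 0 h, a comparison that shares the FDMR 24 h libraries and in which 1.12% of genes were called. Their 0 h levels differed from No Lens by -1.25 to -0.14 on the log2 scale, and none of these differences was called, in a comparison with 0.0265% of genes called.

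The 12 largest rises were smaller, from 2.31-fold to 7.19-fold. PTX3, a pentraxin of innate immunity and matrix assembly, was at 0.559, 4.82, 2.32 and 5.07 CPM in No Lens chicks and at 26.2, 26.5, 23.4 and 21.1 CPM at 24 h. The recovered values were tight and all at least 4 times the highest control value, and the log2 fold change was 2.85 (SE 0.37, adjusted p = 0.000433). FNDC1, a fibronectin type III domain protein, rose from 53.1, 38.6, 54.9 and 38.2 CPM to 136, 120, 104 and 105 CPM (log2 fold change 1.34, SE 0.13, adjusted p = 9.9e-05). ADAMTS1, a secreted protease that cleaves proteoglycans, rose from 38, 60.6, 50.6 and 56.9 CPM to 147, 123, 92.9 and 117 CPM (log2 fold change 1.21, SE 0.17, adjusted p = 0.000696). Both were clear of the control range in every bird, which the naming rule required.

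SNAI1, a repressor known from epithelial-mesenchymal transition, was at 2.76 to 4.13 CPM and at 5.6 to 13.9 CPM (log2 fold change 1.44, adjusted p = 0.0233). SNAI1 kept its call in 3 of 8 fits that left out 1 chick, with adjusted p between 0.0178 and 0.068.

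ARSI, an arylsulfatase, rose from 4.3 to 8.75 CPM to 11.9 to 17.6 CPM (log2 fold change 1.23, adjusted p = 0.00649). PGAP3, which remodels lipid anchors of membrane proteins, WDR16, a protein of motile cilia in mammals, and PROCA1 had log2 fold changes of 1.99, 1.29 and 1.23. Their calls were less steady, since they held in 1, 5 and 2 of the 8 fits without 1 chick, with adjusted p up to 0.153, 0.124 and 0.109. A gene outside the naming rule because it has no symbol, ENSGALG00000004501, had 83 reads at 24 h and 1 read in No Lens chicks, a ratio of 92.5 (counting interval 16.2 to 3697). Its reads were uneven, at 0.494, 23.2, 5.28 and 6.13 CPM, and the call was lost without FD4, FD6 or FD7 (adjusted p 0.0675, 0.0501 and 0.0536). SERPINE3, a serpin that the rule left out because its groups overlapped slightly, was at 1.12, 2.52, 5.62 and 0.921 CPM and at 22, 32.5, 11.7 and 5.6 CPM (log2 fold change 2.79, SE 0.50, adjusted p = 0.00569).

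Among BMP, activin and TGF-beta genes 5 of 39 tested were called, 4 higher and 1 lower, beside 1.33% of all genes. All 5 are ligands. BMP2 was at 12.3, 18.8, 19.5 and 19.3 CPM in No Lens chicks and at 55.5, 49.1, 48.4 and 43.2 CPM at 24 h. It is among the largest rises, for which the rule required no overlap. The log2 fold change of BMP2 was 1.48 (SE 0.17, adjusted p = 0.000186), a 2.8-fold higher level. BMP7, made by the RPE in chick, was the most abundant of the 5 and rose from 229, 294, 310 and 285 CPM to 494, 517, 414 and 450 CPM (log2 fold change 0.74, SE 0.12, adjusted p = 0.00201). BMP4 was at 0.559, 4.13, 5.95 and 10.8 CPM in No Lens chicks and at 18.8, 16.6, 23.6 and 25.9 CPM at 24 h (log2 fold change 1.97, SE 0.44, adjusted p = 0.0251).

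The BMP4 control values were spread over more than the difference between FD7 and the lowest recovered bird, and FD3 was far below the rest. BMP4 lost its call without FD30, FD32, FD4 or FD6 (adjusted p 0.0727, 0.0963, 0.103 and 0.0625), while BMP2 and BMP7 were called in all 8 such fits. INHBA, the subunit of activin A, rose from 4.75 to 6.29 CPM to 11.5 to 13.3 CPM (log2 fold change 1.11, adjusted p = 0.0137, and 0.0955 without both FD3 and FD29). TGFB2, a TGF-beta isoform of the eye, went the other way, from 21.8, 29.4, 32.4 and 20.7 CPM to 15.1, 15.9, 11.7 and 10.9 CPM (log2 fold change -0.98, SE 0.18, adjusted p = 0.00675).

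No receptor, SMAD or inhibitor of the BMP and TGF-beta list was called. The uncalled member with the smallest p was ID2, a target of BMP signalling, at 78.5 to 108 CPM and 113 to 157 CPM (log2 fold change 0.39, adjusted p = 0.0939). The most abundant uncalled member, BMPR-II, the type 2 BMP receptor, had a log2 fold change of -0.09 (SE 0.09). The median over the 39 was 0.06. CTGF, a matricellular protein induced by TGF-beta and mechanical load and here on the immediate early list, rose from 66.5, 105, 114 and 114 CPM to 195, 229, 232 and 181 CPM (log2 fold change 1.06, SE 0.14, adjusted p = 0.000398).

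Retinoid genes leaned upward, with 22 of 26 tested above 0 and a median log2 fold change of 0.31, but 2 were called, beside 1.33% of all genes, and in opposite directions. ALDH1A2, which makes retinoic acid, was at 131, 227, 164 and 148 CPM in No Lens chicks and at 390, 387, 267 and 308 CPM at 24 h (log2 fold change 1.01, SE 0.15, adjusted p = 0.00177). Its sister enzyme ALDH1A3, listed under the older symbol ALDH6, was at 54.8, 65.9, 50.3 and 58 CPM and at 19.3, 1.33, 18.6 and 19.2 CPM (log2 fold change -1.82, SE 0.39, adjusted p = 0.0199). So the 2 retinaldehyde dehydrogenases moved apart, and for ALDH1A3 the shallow chick FD29 was far below the other recovered birds. The ALDH1A3 call was lost without FD32 or FD4 (adjusted p 0.0582 and 0.0681) and kept without FD29.

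BCMO1, which splits beta-carotene into retinal, just missed the threshold although its groups did not overlap, at 81 to 90.6 CPM and 130 to 153 CPM (log2 fold change 0.69, SE 0.17, adjusted p = 0.0519). The row listed as RBP4 but described as purpurin, a retinol-binding protein of the retina, was the most abundant uncalled member, and which of these genes it measures is uncertain. It was at 4192 to 5165 CPM in No Lens chicks and 3426 to 4356 CPM at 24 h (log2 fold change -0.31, adjusted p = 0.203), and its groups overlapped.

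Of 35 interstitial matrix genes 3 were called lower and 1 higher, beside 1.33% of all genes called in either direction. Still, 24 of the 35 lay above 0 and the median was 0.24. TNC, the matrix glycoprotein tenascin-C, was at 303, 264, 246 and 270 CPM in No Lens chicks and at 108, 78.2, 113 and 84.2 CPM at 24 h (log2 fold change -1.48, SE 0.21, adjusted p = 0.000752). FBLN5, an elastic fibre protein, fell from 2.99 to 8.38 CPM to 0.533 to 2.22 CPM (log2 fold change -2.20, adjusted p = 0.00729). It had 17 reads over the 4 recovered libraries and kept its call in all 8 fits without 1 chick. The FBLN5 call was lost with only the 8 compared libraries and without both FD3 and FD29 (adjusted p = 0.0613). LUM, the small proteoglycan lumican, was at 4.38 to 10.6 CPM and at 1.84 to 3.46 CPM (log2 fold change -1.65, adjusted p = 0.0212), and kept its call in 4 of 8 fits without 1 chick.

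CHAD, the cartilage matrix protein chondroadherin, was the member called higher, from 178, 226, 250 and 230 CPM to 342, 340, 306 and 344 CPM (log2 fold change 0.59, SE 0.09, adjusted p = 0.00224). Among uncalled members FBLN2 had the smallest p (log2 fold change -1.28, adjusted p = 0.0843) and fibronectin, FN1, was the most abundant (log2 fold change 0.23, SE 0.15, adjusted p = 0.504).

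Basement membrane genes had 16 of 23 members below 0 and a median of -0.27, and 2 were called, both laminin alpha chains, beside 0.882% of all genes called lower. LAMA3, an epithelial laminin chain, fell from 142, 147, 127 and 110 CPM to 34.6, 41.8, 42.5 and 45.6 CPM (log2 fold change -1.68, SE 0.20, adjusted p = 0.00022). LAMA4, a laminin chain of vessel walls, fell from 71.5, 78.9, 79.7 and 63.1 CPM to 47.1, 36.5, 33.7 and 34.4 CPM (log2 fold change -0.94, SE 0.14, adjusted p = 0.00167). Neither gene overlapped between the groups. HMCN1 came next in p (log2 fold change -0.66, adjusted p = 0.0787) and EGFLAM, pikachurin, was the most abundant (log2 fold change -0.06).

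Of 25 integrin and adhesion genes 20 lay below 0, with a median of -0.26, and 3 were called lower, beside 0.882% of all genes. ITGB4, the integrin subunit of hemidesmosomes, was at 36.3, 70.7, 60.2 and 62.2 CPM and at 14.8, 17.2, 17.4 and 9.33 CPM (log2 fold change -1.99, SE 0.33, adjusted p = 0.00278). CAV2, a caveolar coat protein, fell from 24.3 to 25.5 CPM to 11.6 to 14.1 CPM (log2 fold change -0.91, adjusted p = 0.00434). The third is a row with the symbol CPQ but the RefSeq entry of SDC2, syndecan 2, so which of these genes it measures is uncertain (log2 fold change -0.55, adjusted p = 0.00434). CD151 was the uncalled member with the smallest p (log2 fold change -0.51, adjusted p = 0.0884), and ITGB1 was the most abundant (log2 fold change -0.06).

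GSN, the actin-severing protein gelsolin, had one of the smallest p-values of the comparison, at 401, 383, 326 and 288 CPM in No Lens chicks and 87.9, 89.5, 102 and 75.2 CPM at 24 h (log2 fold change -1.98, SE 0.21, adjusted p = 0.000118). GSN and TNFSF10, the death ligand TRAIL, were the called members of the apoptosis list, 2 of 21, beside 0.882% of all genes called lower. The median of the list was -0.09. TNFSF10 fell from 28.4 to 32.4 CPM to 9.86 to 11.9 CPM (log2 fold change -1.45, SE 0.17, adjusted p = 0.00022). BCL2L1 and a calpain row listed as CAPN1 but as CAPN11 in RefSeq, its uncalled members with the smallest p and the highest level, had log2 fold changes of 0.40 and -0.12.

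Markers of endothelium, the lining of vessels, did not move one way at 24 h, and 5 of 8 tested lay below 0 and 3 above. The summed level of the 9 endothelial markers in the table was 638 to 798 CPM in No Lens chicks and 530 to 601 CPM at 24 h, without overlap. The called members were 2, both lower, beside 0.882% of all genes called lower, and the median was -0.31. VWF, von Willebrand factor, was at 229, 277, 234 and 200 CPM and at 144, 99.5, 94.1 and 79.2 CPM (log2 fold change -1.17, adjusted p = 0.00212). It averaged 235 and 104 CPM, beside 716 and 551 CPM for the whole sum, so VWF carried most of the summed difference. FLT1, VEGF receptor 1, was at 24.4 to 33.2 CPM and at 13.1 to 19.9 CPM (log2 fold change -1.07, adjusted p = 0.00675). KDR, VEGF receptor 2, stood at a mean of 240 CPM in both groups (log2 fold change 0.02, adjusted p = 0.963). PLVAP, a protein of fenestrated endothelium, pointed the other way, at a mean of 22.2 and 40.6 CPM (log2 fold change 0.81, adjusted p = 0.275). Whether fewer endothelial cells or vessels were collected was not tested.

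Of 5 red cell markers tested, all lay above 0 and 1 was called, beside 0.450% of all genes called higher. The summed erythroid markers were at 47.5, 226, 143 and 206 CPM in No Lens chicks and at 266, 440, 227 and 260 CPM at 24 h, with FD3 the lowest and FD29 the highest library. RHAG, the Rh-associated glycoprotein of red cells, was the called member, at 2.52 to 3.68 CPM and at 7.16, 13.3, 6.43 and 6.4 CPM (log2 fold change 1.38, SE 0.32, adjusted p = 0.0317). It kept its call in 3 of 8 fits without 1 chick, and without both FD3 and FD29 its adjusted p was 0.155. HBB, the beta globin gene and most of the sum, was at a mean of 147 and 279 CPM and was not called (log2 fold change 0.89, adjusted p = 0.29). The part of blood content in this value was not tested.

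Cone phototransduction, the cascade by which daylight receptors respond to light, had 4 of 16 members called, all lower, beside 0.882% of all genes called lower, and a median of -0.10. CNGA3, a subunit of the cone cation channel, was at 232, 189, 178 and 183 CPM in No Lens chicks and at 159, 109, 135 and 120 CPM at 24 h (log2 fold change -0.57, SE 0.11, adjusted p = 0.0117). PDE6C, the cone phosphodiesterase, was at 707 to 754 CPM and at 524 to 611 CPM (log2 fold change -0.36, adjusted p = 0.029). RGS9BP, the anchor of the complex that ends the light response, was at 1192, 1030, 1033 and 1013 CPM and at 818, 739, 873 and 736 CPM (log2 fold change -0.43, SE 0.08, adjusted p = 0.00569). SLC24A2, the cone sodium-calcium exchanger, was at 242 to 276 CPM and at 181 to 218 CPM (log2 fold change -0.34, adjusted p = 0.0164).

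Not all cone genes fell. GNGT2, the cone transducin gamma subunit, had the smallest p among the uncalled members and pointed upward (log2 fold change 0.44, adjusted p = 0.122). PDE6H, the most abundant, was near 0 (log2 fold change -0.11). RGS9BP was called in all 8 fits without 1 chick, CNGA3 in all but that without FD32 (adjusted p = 0.0605), SLC24A2 in all but those without FD32 or FD3 (0.0715 and 0.0616) and PDE6C in 2 of 8. Without both FD3 and FD29, 1 of the 16 was called.

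Clock genes differed although the hour of collection was matched. Of 18 tested, 2 were called lower and 1 higher, beside 1.33% of all genes called, and the median was 0.06. PER2, a light-sensitive repressor of the clock, was at 1202, 1082, 984 and 1016 CPM in No Lens chicks and at 808, 707, 793 and 755 CPM at 24 h (log2 fold change -0.48, SE 0.08, adjusted p = 0.00273). PER3, a related repressor, was at 263, 240, 195 and 184 CPM and at 155, 121, 143 and 126 CPM (log2 fold change -0.69, SE 0.16, adjusted p = 0.0317). ARNTL, which encodes the activator BMAL1, was at 60.1, 58.1, 71.8 and 82.2 CPM and at 85.7, 105, 84.9 and 102 CPM (log2 fold change 0.46, SE 0.10, adjusted p = 0.026). The repressors were thus lower and the activator higher in every recovered bird than in any No Lens bird.

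PER2 was called in all 8 fits without 1 chick, PER3 in 3 and ARNTL in 4, and without both FD3 and FD29 the adjusted p was 0.202 for PER3 and 0.172 for ARNTL. CRY2, the uncalled member with the smallest p and the highest level, was at 483 to 525 CPM and 375 to 477 CPM (log2 fold change -0.29, adjusted p = 0.0578). In FDMR 6 h chicks, collected later in the day, PER3 was at 51.4 to 77.2 CPM and ARNTL at 192 to 202 CPM, and CNGA3 and RGS9BP were at 83 to 89 CPM and 539 to 624 CPM. For these 4 genes the 24 h values lay between those of No Lens and of the 6 h group. The collection hour of single birds was not analysed here.

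**Figure D3:**
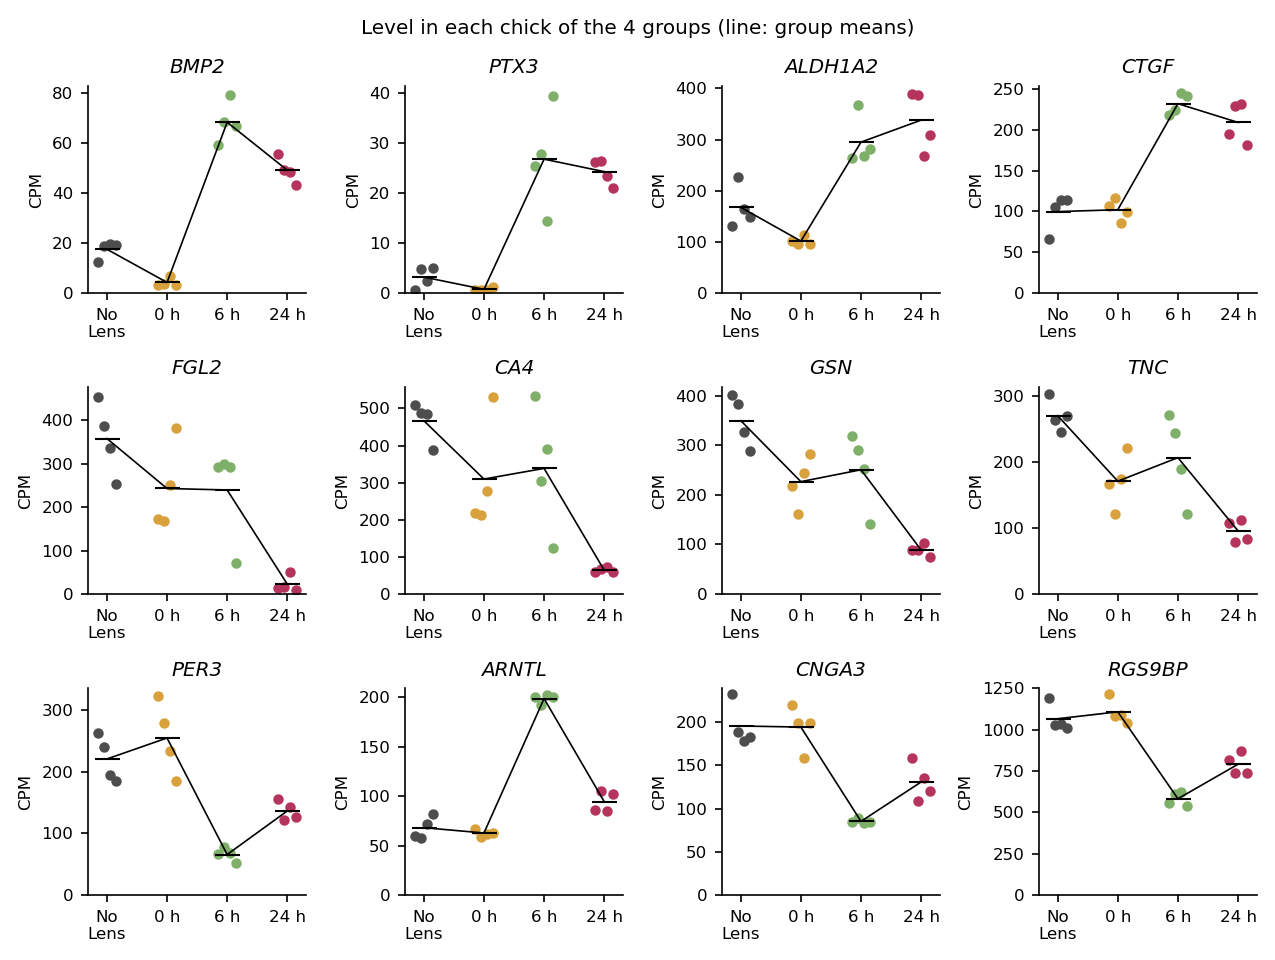
Each point is the CPM of 1 chick and the line joins group means, from No Lens through 0 h, 6 h and 24 h of recovery. BMP2, PTX3, ALDH1A2 and CTGF are high at 6 h and 24 h, FGL2, CA4, GSN and TNC are lowest at 24 h, and the lower row shows PER3, ARNTL, CNGA3 and RGS9BP at 24 h between No Lens and 6 h.

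The study's own list of genes changed by occlusion was chosen on these libraries, the No Lens ones among them, so its values are a description. The study called all 13 at 0 h at an FDR of 5% with its own edgeR test and filter, whereas the fit used here called 3 genes at 0 h. Whether a listed gene is called at 0 h therefore depends on the test and filter. Of the 13 listed genes 12 were found and tested, and 5 were called at 24 h, beside 1.33% of all genes. BMP2, called lower than No Lens at 0 h (log2 fold change -2.07, adjusted p = 0.000276), was called higher at 24 h. ALDH1A2 differed by -0.72 at 0 h, which was not called (adjusted p = 0.343), and was called higher at 24 h. TNC and GSN differed by -0.66 and -0.62 at 0 h, neither called (adjusted p = 0.838 and 0.944), and were called lower at 24 h. Between 24 h and 0 h GSN was called lower (log2 fold change -1.36, adjusted p = 0.00237) and TNC was not (-0.82, adjusted p = 0.0648). RHOB, listed as CRHOB, a small GTPase, differed from No Lens by 0.42 at 0 h (adjusted p = 0.161) and by 0.36 at 24 h (adjusted p = 0.0337, kept in 2 of 8 fits without 1 chick).

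The members described next were not called at 24 h. SHC4, an adaptor protein, was 0.64 below No Lens at 0 h (adjusted p = 0.0456) and 0.21 below at 24 h. WNT9A, a Wnt ligand, was at 2.52 to 3.64 CPM without occlusion, 9.02 to 15.2 CPM at 0 h (adjusted p = 0.0385) and 1.33 to 2.4 CPM at 24 h. SIK1 was 0.55 below at 0 h (adjusted p = 0.356) and 0.15 below at 24 h. KIAA1199, CLEC3B and SLCO1C1 were 0.61, 0.60 and 0.42 above at 0 h (adjusted p = 0.356, 0.628 and 0.852) and 0.40, 0.09 and 0.22 above at 24 h. Both time points are compared with the same 4 No Lens libraries.

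Genes of mitosis lay above 0 in 25 of 27 cases, beside 50.1% of all genes, with a median of 0.59. Of the 27, 1 was called, beside 0.450% of all genes called higher. MKI67, a nuclear marker of proliferating cells, was at 11.7, 15.1, 11.9 and 12.7 CPM and at 20.2, 21.9, 18.4 and 22.4 CPM (log2 fold change 0.67, SE 0.16, adjusted p = 0.0427). Its groups did not overlap, but the call held in 1 of 8 fits without 1 chick and the adjusted p was 0.192 without both FD3 and FD29. The row CCNB2, whose RefSeq entry is CCNB1, so which B-type cyclin it measures is uncertain, stood at 0.98 on the log2 scale (adjusted p = 0.124), and KIF2C, the most abundant member, -0.06. Complement genes were above 0 in 11 of 12 cases with a median of 0.76, and edgeR called 0, beside 1.33% of all genes. An unadjusted p under 0.05 in edgeR was reached by 4 of the 12, beside 1563 of all 11334 genes. DESeq2 called 1, limma-voom 0 and the likelihood ratio test 1. C7, a terminal component, came nearest (log2 fold change 0.86, adjusted p = 0.0578), and PROS1 was the most abundant (0.14).

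Neuropeptides had 1 of 14 called, beside 1.33% of all genes, and a median of 0.12. GCG, the glucagon precursor of chick amacrine cells, was at 29.6, 26.9, 35.4 and 32 CPM and at 38.3, 59, 47.7 and 46.6 CPM (log2 fold change 0.61, SE 0.13, adjusted p = 0.0209). The groups did not overlap, and the call was kept in 3 of 8 fits without 1 chick (adjusted p 0.0109 to 0.0857). VIP, vasoactive intestinal peptide, differed by 0.59 on the log2 scale (adjusted p = 0.154), and NTS, neurotensin, the most abundant, of -0.13. Of 13 dopamine genes edgeR, DESeq2, limma-voom and the likelihood ratio test each called 0, beside 1.33% of all genes in edgeR. Their median was 0.05, and 3 reached an unadjusted p under 0.05 in edgeR, beside 1563 of all 11334 genes. The smallest p belonged to SLC6A2 (log2 fold change 0.78, adjusted p = 0.185) and the highest level to DRD4 (0.12).

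GABA and glycine genes were below 0 in 19 of 22 cases, with a median of -0.12 and a range of -0.29 to 0.23. EdgeR called 0 of them, beside 1.33% of all genes, limma-voom 0, and DESeq2 and the likelihood ratio test 1 each. An unadjusted p under 0.05 in edgeR was reached by 2 of the 22, beside 1563 of all 11334 genes. GABRA6, a GABA-A receptor subunit and the most abundant member, was at -0.00 on the log2 scale.

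Iron and vacuolar ATPase genes had 2 of 26 called, both lower, beside 0.882% of all genes, and 20 below 0, with a median of -0.09. Beside ATP6V1C2, ABCG2, an exporter of haem and drugs, fell from 29 to 43.1 CPM to 17.2 to 20.2 CPM (log2 fold change -0.92, adjusted p = 0.00687). Transferrin, TF, varied from 59.9 to 195 CPM in No Lens chicks (log2 fold change -1.53, adjusted p = 0.0531), and ferritin heavy chain, listed as FTH, had a log2 fold change of 0.29.

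In the NF-kB and TNF list 2 of 30 genes were called lower, beside 0.882% of all genes, and the median was -0.15. IL1R1, the interleukin 1 receptor, was at 23.2 to 45 CPM and at 9.28 to 14.4 CPM (log2 fold change -1.32, adjusted p = 0.0233), and RIPK1, a kinase of death receptor signalling, was at -0.69 on the log2 scale (adjusted p = 0.0407). These calls held in 3 and 1 of the 8 fits without 1 chick, and limma-voom called neither. TNFRSF1A and MAP3K7, the uncalled members with the smallest p and the highest level, were at -0.49 and 0.04. Of 24 Wnt genes WNT7B was the called one, beside 1.33% of all genes, and the median was 0.03. SFRP2 was at -0.84 (adjusted p = 0.165) and CTNNB1, beta-catenin, at -0.10. Of 39 lipid synthesis genes GPD1 was the called one, beside the same 1.33%, and the median was -0.04. ELOVL1 was at -0.57 (adjusted p = 0.0693) and FASN at -0.09.

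Immediate early genes, which answer to stimulation within minutes to hours, had 1 of 17 called, CTGF, beside 1.33% of all genes. Their median was 0.01. KLF6 was at -0.50 (adjusted p = 0.0611) and SIK1, the most abundant uncalled member, at -0.15 (adjusted p = 0.624). In 3 lists of energy metabolism edgeR called 0 genes, which beside 1.33% of all genes is near the background. The respiratory chain had 0 of 50, with 6 at an unadjusted p under 0.05 and a median of 0.08. Mitochondrial import had 0 of 21, with 4 and -0.01, and pyruvate and lactate metabolism 0 of 32, with 5 and -0.02. Over all genes 1563 of 11334 had such an unadjusted p in edgeR. Of these 3 lists DESeq2 called 0, 1 and 1 members, limma-voom 0, 0 and 0, and the likelihood ratio test 1, 0 and 2. NDUFB4 (0.56), HSPD1 (0.21) and PDK4 (-0.74, adjusted p = 0.0604) had the smallest p, and ATP5A1 (0.08), HSPA9 (-0.04) and GAPDH (-0.00) the highest levels. Of 30 chaperones edgeR called 0, beside 1.33% of all genes, and the median was 0.12. An unadjusted p under 0.05 in edgeR was reached by 10 of the 30, beside 1563 of all 11334 genes. DESeq2 called 3, limma-voom 0 and the likelihood ratio test 2. DNAJA1 was at 0.29 (adjusted p = 0.0878) and HSPA8 at 0.16.

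**Figure D4:**
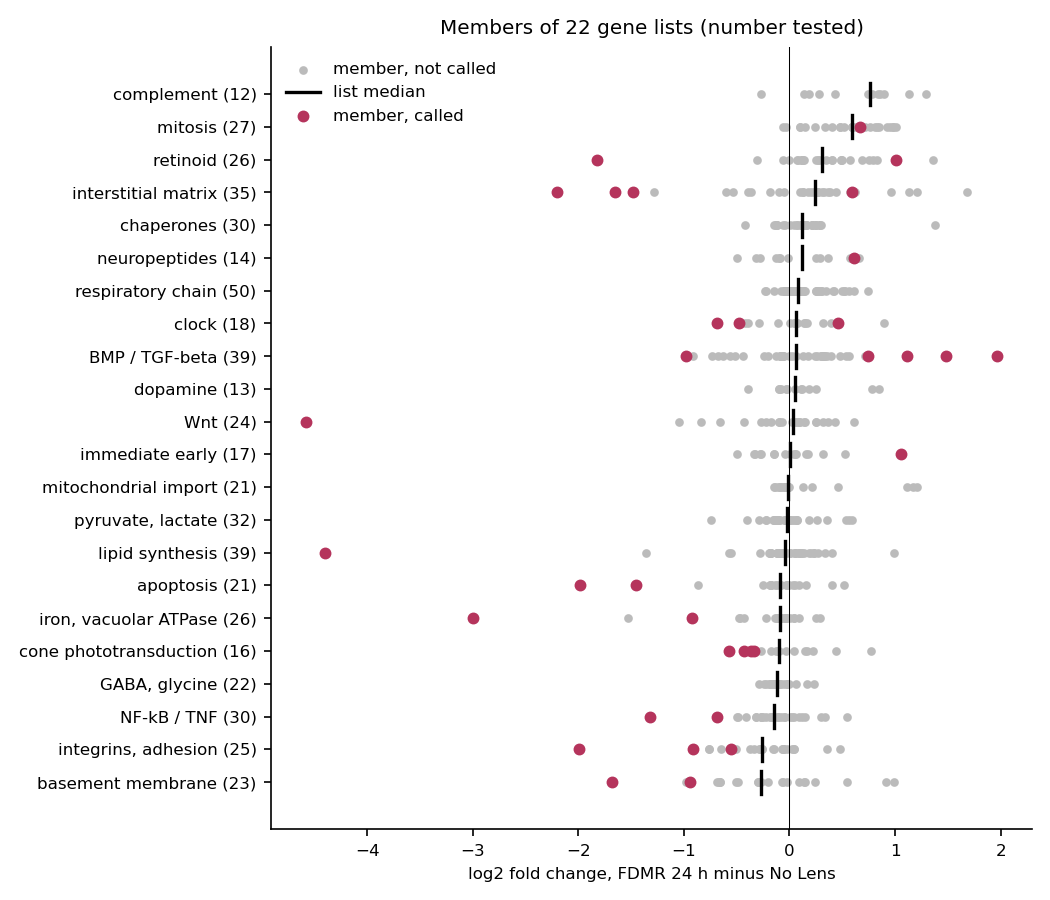
Each point is a tested member of 1 of 22 gene lists, placed by its log2 fold change, FDMR 24 h minus No Lens, and the black bar is the list median. Called members (red) fall on both sides in the BMP / TGF-beta, retinoid and clock lists and on the lower side in the cone, basement membrane and adhesion lists, while complement and mitosis have the highest medians with 0 and 1 called.

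Markers of the labelled tissue were present in all 8 libraries. RPE65 of the pigment epithelium averaged 549 and 603 CPM in No Lens and 24 h chicks, GLUL of Mueller glia 1973 and 2493 CPM and COL1A2 of connective tissue 244 and 374 CPM. Summed markers at 24 h relative to No Lens were 1.15 for rods, 1.07 for cones, 1.05 for bipolar, 1.04 for amacrine, 1.06 for ganglion and 1.24 for horizontal cells, 1.14 for Mueller glia, 1.08 for RPE, 1.18 for melanocytes, 1.33 for fibroblasts, 0.834 for smooth muscle, 1.1 for striated muscle, 0.995 for leukocytes and 1.19 for cartilage. Lens markers summed to 5.87 to 13.4 CPM in No Lens chicks and to 12.1, 11.9, 9.64 and 44.8 CPM at 24 h, so chick FD32 alone stood above the control range. The summed levels of Mueller glia (3788 to 4709 and 4739 to 5327 CPM) and of cartilage (429 to 547 and 583 to 634 CPM) did not overlap between the groups. For Mueller glia GLUL, which was not called (adjusted p = 0.169), carried most of the difference, and 3 of the 8 members tested lay below 0. For cartilage CHAD carried the difference. Of the 12 cartilage markers 9 averaged over 1 CPM. In No Lens and 24 h chicks COL2A1 averaged 55.7 and 64.3 CPM, COL9A3 59.1 and 39.7 CPM and COL11A1 158 and 157 CPM. MATN1, a cartilage matrilin, was at 0 in all 8 libraries. KRT18 of the RPE list, TNNC2 of striated muscle and HBE of red cells were also at 0. Among the 17 marker lists the called members were CNGA3 and PDE6C of cones, VWF and FLT1 of endothelium, LUM of fibroblasts, RHAG of red cells and CHAD of cartilage. EdgeR called 0 members of the other 12, beside 1.33% of all genes, while DESeq2 called 3, limma-voom 0 and the likelihood ratio test 3. Of their tested entries 22 had an unadjusted p under 0.05 in edgeR, beside 1563 of all 11334 genes. They were 3 of 9 for rods, 0 of 7 for bipolar, 2 of 9 for amacrine and 1 of 5 for ganglion cells. Horizontal cells had 1 of 6, Mueller glia 2 of 8, RPE 2 of 9 and melanocytes 4 of 9. Smooth muscle had 2 of 7, striated muscle 4 of 5, leukocytes 0 of 5 and lens 1 of 2.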

How the data were processed

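Per the labels and the study's methods, the authors made stranded mRNA libraries from the retina, RPE and choroid of right eyes, sequenced single-end reads, trimmed them with cutadapt and Trimmomatic, used TopHat2 and Bowtie2 to align them to galGal4, and assigned them to genes by HTSeq. The strand option of the counting and the annotation version are not given in the sources used here, so overlapping and antisense genes are uncertain. The deposited values are raw counts per gene. Between 54.9 and 58.1% of the 2674237 to 7697890 entries per library fell on genes, and 6 rows naming no gene were left out.

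The 11334 of 17108 genes that reached 10 counts in 4 or more of 16 libraries were fitted with edgeR 4.0.16 (TMM, quasi-likelihood) in R 4.3.3, all 16 libraries in 1 fit, and p-values were adjusted by the Benjamini-Hochberg method at 5%. The biological coefficient of variation was 12.5%. DESeq2 1.42.0, limma-voom 3.58.1, the edgeR likelihood ratio test, other filters and scalings, and leaving out libraries were alternatives, and the scripts were tested on simulated data. Symbols came from the table (13771), RefSeq (79) or the study's tables (1), and 3257 genes had none.

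Genes were named by rule: the 12 largest rises and falls of calls that had a symbol, averaged 10 counts or more in the higher group and showed no overlap, each called member of 22 pathway lists, each list's uncalled members with the smallest p and the highest level, and the study's own list of 13 genes. The 17 marker lists were summed in CPM. The comparison, the members and the lists were chosen with earlier results of these data known. Each library is 1 bird, and p-values weigh a group difference against the spread between birds, estimated over all 16 libraries. A few genes that the rule names are not reported here.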

Additional observations from a re-analysis of the deposited data

Results flagged for a closer look

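Of 122 groups of 4 chicks examined over 61 genes, 8 held 1 chick far from the other 3, and chance gives about 1 in 20. In No Lens chicks, BMP2 was at 12.3 CPM in FD3 against 18.8 to 19.5 CPM in the others, and RGS9BP was at 1192 CPM in FD3 against 1013 to 1033 CPM. At 24 h, RHAG was at 13.3 CPM in FD29 against 6.4 to 7.16 CPM, and ALDH6 was at 1.33 CPM in FD29 against 18.6 to 19.3 CPM. Chick FD30 stood apart for EDNRB, at 49.6 CPM against 10.6 to 14.6 CPM, and for CHAD, at 306 CPM against 340 to 344 CPM. For WNT7B and GPD1, FD30 was at 0.459 CPM and the other 3 recovered chicks were at 0, which is 2 reads for each gene.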

How the results depend on the processing

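The 151 called genes kept their direction in each of the 17 alternative fits that tested them. Of the 151, 50 were called in all 17 fits, 76 in all 8 fits without 1 chick and 128 in all 3 other tests. The fit thinned to the shallowest library tested 10220 genes, and a gene dropped there has no direction and counts as not called. The number of calls depended on the test: DESeq2 called 261 genes (98 higher, 163 lower), the likelihood ratio test 298 (116 and 182) and limma-voom 130 (46 and 84). A threshold of 1% gave 73 (20 and 53), and a fit of only the 8 compared libraries gave 93 (23 and 70). Leaving out 1 chick gave 92 to 173 calls, 31 to 62 higher and 61 to 112 lower. Without both FD3 and FD29, an alternative chosen after seeing the data, 89 genes were called (23 and 66), of which 81 were among the 151. No paired analysis was possible because the labels give the chicks of different groups no shared number. Depth limits the low genes, since 3 counts are up to 1.93 CPM.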
